A study of Mus musculus with 16 samples.

Results

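The 4 libraries described here profiled 2 repressive histone marks, H3K27me3 and H3K9me3, in haploid spermatids of WT mice by AutoCUT&RUN, in which an antibody tethers micrococcal nuclease to chromatin and the released DNA is sequenced. They are 4 of the 16 libraries of the series and were chosen by genotype and antibody alone, with 2 libraries per mark. The WT animals were 2-month-old, non-mated +/Y brothers of males that lacked all 3 H2A.B genes, from a CRISPR line made in B6;SJLF1/J zygotes and backcrossed to C57BL/6J. Live haploid spermatids were sorted by DNA content. By the methods, 2 sibling pairs served for the replicates, and the titles of libraries with the same replicate number share strings of digits. Replicates 1 and 2 were therefore taken as 2 WT animals with both marks measured in each, although no label names the animal. WT IgG and H3K4me3 libraries served as background and as a check of the cell type, and the H3K27me3 and H3K9me3 libraries of the KO brothers, which lack H2A.B in every cell, as samples that took no part in defining any class of bin.

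H3K27me3 is laid down by Polycomb repressive complex 2 and is known for covering CpG-rich promoters of developmental regulators that are silent in a cell. H3K9me3 is laid down by methyltransferases such as SETDB1 and SUV39H, is bound by HP1 proteins, and is known for pericentromeric satellites, transposable elements, and clustered gene families such as KRAB zinc finger genes. In most cells the marks occupy different sequences. In round spermatids most of the genome is still wrapped in histones, before protamines replace them.

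The distinct fragments on the 19 autosomes numbered 2863163 and 196218 in replicates 1 and 2 of H3K27me3. H3K9me3 had 3761745 and 3136799, and IgG 140669 and 140181. H3K27me3 replicate 2 was therefore the shallowest of the 4, with a mean of 0.747 fragments in a 10-kb bin against 9.38 to 11.6 in the other 3. Autosomes held 99.0% and 97.9% of the distinct H3K27me3 fragments but 61.2% and 62.6% of those of H3K9me3, the rest being on X and Y, which are not analysed here. The values are not scaled to a spike-in, so every level is a share of a library and cannot give the absolute amount of a mark. H3K4me3, a mark of active promoters, was found within 1 kb of the start of all 10 spermatid marker genes in both libraries, with medians of 13.4 and 19.1 fragments per 1000000 autosomal fragments (CPM) against 2.82 and 2.94 over all coding genes. Among these markers Prm1, at 2.82 and 1.47 CPM, was not above the medians of all coding genes. At 10 markers of Sertoli, Leydig, and other somatic cells, H3K4me3 was at 0 for 9 genes in replicate 1 and for 5 in replicate 2, with medians of 0 and 0.245. The H3K27me3 medians at the starts of these somatic genes were 8.21 and 5.10 CPM against 0.349 and 0 over all coding genes, and 4 of them, Amh, Star, Cyp17a1, and Pecam1, had no H3K27me3 fragment in either library. At 5 spermatogonial markers the H3K4me3 medians were 2.82 and 0.489 and the H3K27me3 medians 31.8 and 15.3.

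Sequences from named genes and bins of each kind are shown here, since the classes of bins differed in base composition and repeats. Each is in GRCm38, written 5′ to 3′ on the + strand in lower case with every CpG in capitals. The first pair are the RefSeq promoters, 250 bases before to 50 after the start, of the protein-coding genes with the largest H3K27me3 excess, Htr1a (chr13:105443443-105443742, 7 CpGs) and 3110040M04Rik (chr1:151203871-151204170, 4 CpGs), and both windows reach into the first exon. The median over 32851 RefSeq promoters was 7 CpGs in such a window.
Htr1a: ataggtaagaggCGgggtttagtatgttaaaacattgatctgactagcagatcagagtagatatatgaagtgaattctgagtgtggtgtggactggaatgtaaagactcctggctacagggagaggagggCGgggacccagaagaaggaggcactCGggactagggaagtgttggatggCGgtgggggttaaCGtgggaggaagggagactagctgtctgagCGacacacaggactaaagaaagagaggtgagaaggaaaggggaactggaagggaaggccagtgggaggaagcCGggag
3110040M04Rik: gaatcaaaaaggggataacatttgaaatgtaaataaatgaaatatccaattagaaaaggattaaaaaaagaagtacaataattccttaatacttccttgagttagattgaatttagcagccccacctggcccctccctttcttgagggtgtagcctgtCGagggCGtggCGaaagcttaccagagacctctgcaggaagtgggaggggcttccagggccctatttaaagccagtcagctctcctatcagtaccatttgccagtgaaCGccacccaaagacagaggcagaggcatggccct
The next is the central 300 bases of the bin with the highest H3K9me3 among those enriched in it alone. It (chr4:147334851-147335150, 1 CpG) lies in introns of the lincRNAs C230088H06Rik and Gm26624, beside Zfp988.
H3K9me3 bin by Zfp988: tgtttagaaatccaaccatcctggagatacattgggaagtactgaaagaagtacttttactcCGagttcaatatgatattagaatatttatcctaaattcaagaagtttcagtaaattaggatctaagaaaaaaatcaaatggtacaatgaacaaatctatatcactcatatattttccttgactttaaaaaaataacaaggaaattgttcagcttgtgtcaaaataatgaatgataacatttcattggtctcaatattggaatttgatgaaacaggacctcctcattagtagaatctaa
The last 3 are the centres of the joint bins in which the lower of the mean folds of the 2 marks was highest. The first (chr4:147404851-147405150, 0 CpGs) lies in introns of the same lincRNAs, the second (chr12:20234851-20235150, 3 CpGs) in an intron of the transcript Gm49692, and the third (chr10:22144851-22145150, 5 CpGs) in an intron of E030030I06Rik.
Both marks, chromosome 4: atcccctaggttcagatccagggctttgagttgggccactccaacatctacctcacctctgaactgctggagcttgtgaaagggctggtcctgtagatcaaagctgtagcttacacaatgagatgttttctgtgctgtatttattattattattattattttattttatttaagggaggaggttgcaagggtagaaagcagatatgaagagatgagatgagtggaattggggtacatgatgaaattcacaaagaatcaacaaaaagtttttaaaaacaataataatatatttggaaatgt
Both marks, chromosome 12: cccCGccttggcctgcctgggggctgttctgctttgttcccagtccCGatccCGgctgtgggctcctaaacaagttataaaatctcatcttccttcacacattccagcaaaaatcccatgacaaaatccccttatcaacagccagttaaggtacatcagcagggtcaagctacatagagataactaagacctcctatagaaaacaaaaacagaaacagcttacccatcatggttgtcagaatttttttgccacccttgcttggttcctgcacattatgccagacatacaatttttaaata
Both marks, chromosome 10: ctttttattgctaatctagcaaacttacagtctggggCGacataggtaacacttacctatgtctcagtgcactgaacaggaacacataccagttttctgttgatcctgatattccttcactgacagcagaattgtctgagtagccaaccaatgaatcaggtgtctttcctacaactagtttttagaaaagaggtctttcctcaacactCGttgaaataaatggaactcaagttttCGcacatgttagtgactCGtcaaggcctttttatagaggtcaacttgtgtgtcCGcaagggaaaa

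Across the autosomes the marks mostly lay in different 10-kb bins. A bin was called enriched in a mark if its level was at least 2 times the mean of all usable bins in both libraries of that mark. Of 232147 usable bins, 14066 (6.06%) were enriched in H3K27me3, 23894 (10.3%) in H3K9me3, and 848 (0.365%) in both. This left 13218 bins with H3K27me3 alone, 23046 with H3K9me3 alone, and 195035 (84.0%) with neither. Of the H3K27me3 bins, 6.03% were also enriched in H3K9me3, against 10.3% of all usable bins. Of the H3K9me3 bins, 3.55% were also enriched in H3K27me3, against 6.06% of all. The limit meant at least 24 and 2 fragments for H3K27me3 and 23 and 19 for H3K9me3. Without H3K27me3 replicate 1, the deeper library of that mark, 21802 bins had H3K27me3 alone and 2304 both, and the shares came close to those of all bins, with 9.56% of H3K27me3 bins also enriched in H3K9me3 against 10.3%, and 9.64% of H3K9me3 bins also enriched in H3K27me3 against 10.4%. For the joint class the shallow library set the edge: among 1201 bins past the limit in the other 3 libraries, 147 had 0 and 206 had 1 fragment in H3K27me3 replicate 2 and fell just outside, and 203 had 2 and fell just inside.

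**Figure D1:**
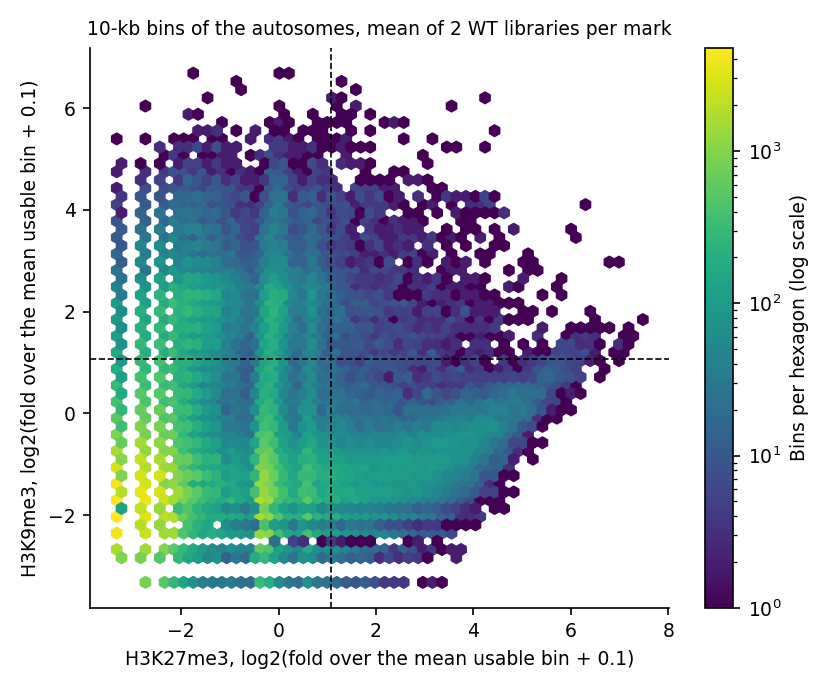
Density of 232147 usable 10-kb bins by the mean H3K27me3 level (x axis) and the mean H3K9me3 level (y axis) of the 2 WT libraries per mark, as log2 of the fold over the mean usable bin plus 0.1; colour gives the number of bins per hexagon on a log scale, and dashed lines mark 2 fold. Most bins lie below both lines, 2 arms extend along the axes, and the upper right corner, where bins have both marks, is sparse.

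The levels made the classes, so they are given as a description with no test. In bins with H3K27me3 alone, the mean H3K27me3 level was 10.8 and 9.71 times the usable mean in the 2 libraries, and H3K9me3 was at 0.461 and 0.638 times. In bins with H3K9me3 alone, H3K9me3 was at 6.48 and 5.39 times and H3K27me3 at 0.483 and 0.529 times. These classes leave out bins enriched in the other mark, so its low level there was set by the rule. Bins with neither mark had 0.346 and 0.407 times for H3K27me3 and 0.357 and 0.477 times for H3K9me3. In joint bins, H3K27me3 was at 12.8 and 14.4 times and H3K9me3 at 8.44 and 7.57 times. The medians gave another order for H3K27me3, 7.17 and 5.36 times in joint bins against 8.29 and 6.70 times in bins with H3K27me3 alone. IgG, which had no part in choosing between the marks, was at 0.789 and 0.784 times the mean in bins with H3K27me3 alone, at 2.34 and 2.10 times in those with H3K9me3 alone, and at 2.02 and 1.66 times in joint bins. The part of this background in the H3K9me3 and joint classes was not tested. When bins also had to exceed IgG by 2 times, with 1 fragment added to the pooled IgG count, 11415 bins kept H3K27me3 alone, 7467 H3K9me3 alone, and 299 both. The added fragment raised the limit for H3K9me3 even in bins without IgG, so these counts cannot separate background from a higher limit. At 3 fold, with no such demand on IgG, 10107 bins had H3K27me3 alone, 15161 H3K9me3 alone, and 375 both. The 2 IgG libraries together had a mean of 1.17 fragments per bin, which limits the comparison with IgG.

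The KO libraries, which took no part in the classes, were compared at the same limit. Of the 13218 bins with H3K27me3 alone, 83.2% reached 2 times the mean in both KO H3K27me3 libraries and 0.923% did so in both KO H3K9me3 libraries. Of the 23046 bins with H3K9me3 alone, 82.3% did so for H3K9me3 and 0.855% for H3K27me3. Among all usable bins the shares were 6.14% for H3K27me3 and 9.22% for H3K9me3. Of the 848 joint bins, 646 (76.2%) reached the limit for both marks in all 4 KO libraries, against 0.404% of all usable bins. Their mean level in the KO libraries was 13.1 and 14.6 times for H3K27me3 and 8.86 and 7.73 times for H3K9me3.

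**Figure D2:**
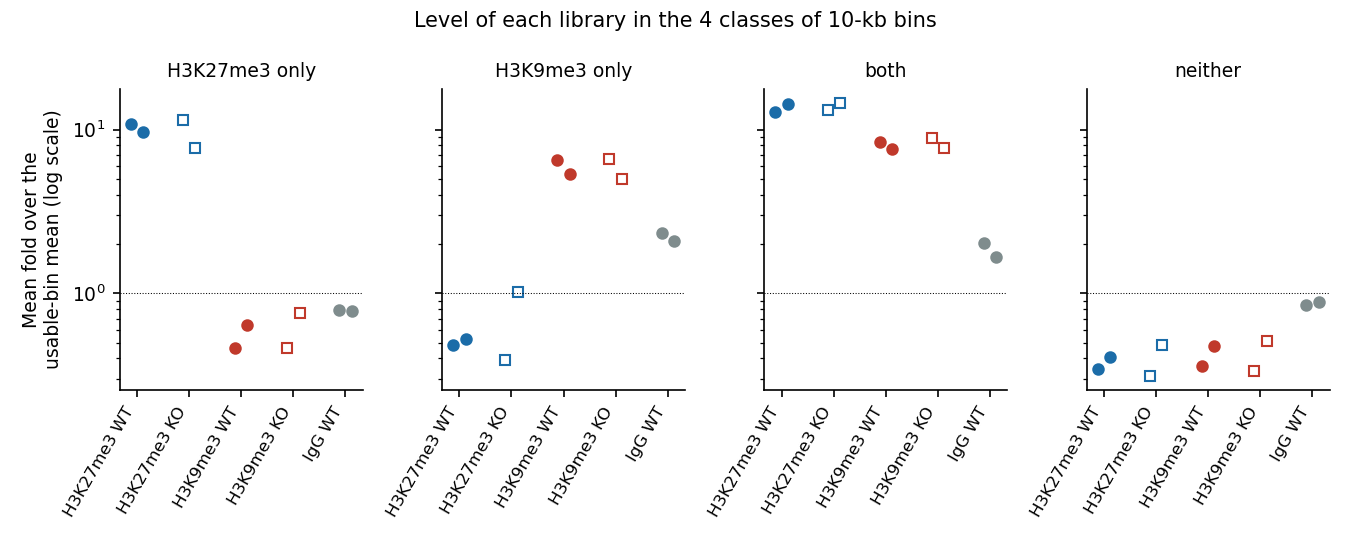
Mean level of each library in the 4 classes of 10-kb bins, as the fold over that library's mean usable bin on a log scale; filled circles are WT libraries, open squares KO libraries, with replicates 1 and 2 from left to right. In joint bins all 8 libraries of the 2 marks lie between 7.57 and 14.6, and IgG lies at 2.02 and 1.66.

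In terms of fragments, bins with H3K27me3 alone held 57.8% and 48.8% of the autosomal H3K27me3 fragments, and 1.84% and 2.52% of those of H3K9me3. Bins with H3K9me3 alone held 45.1% and 37.2% of the H3K9me3 fragments and 4.50% and 4.64% of those of H3K27me3. Joint bins held 4.38% and 4.64% of H3K27me3 and 2.16% and 1.92% of H3K9me3. The means were 53.3% ± 6.32 against 2.18% ± 0.483 in the first class and 4.57% ± 0.101 against 41.1% ± 5.62 in the second (SD, n = 2 per mark). No test is given, since the same libraries made the classes. The 95% Wilson intervals of the shares were at most 0.262 percentage points wide on each side, and they cover counting error only. The 1% of usable bins that ranked highest in one H3K27me3 library held 25.3% and 28.0% of the usable fragments of the other, against 19.7% and 17.1% for H3K9me3. Bins of high IgG, which hold far more of H3K9me3 than of H3K27me3, are outside these shares, so they give no order of the marks over the whole autosomes.

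Across all usable bins the mean levels of the marks, as log2(CPM + 0.1), had a Pearson r of 0.16 and a Spearman rho of 0.19. Between single libraries of different marks r ran from 0.066 to 0.20, against 0.45 within H3K27me3 and 0.70 within H3K9me3. These are descriptions over neighbouring bins, which share mappability and base composition. Without H3K27me3 replicate 1 the r of the means was 0.080. Over the 37112 bins enriched in at least 1 mark, a set that the enrichment limit itself shapes, r was -0.68. With all libraries thinned to the depth of the shallowest, which changed both the depth and the set of bins, r over the 150577 bins left was -0.30.

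With no limit on H3K9me3, its median level did not fall from any range of H3K27me3 to the next. In bins with H3K27me3 below the mean, the median H3K9me3 level was 0.176 and 0.426 in the 2 libraries, and at 2 to 5 times the mean it was 0.264 and 0.426. At 10 to 20 times it was 0.484 and 0.640, at 20 to 40 times 0.879 and 0.960, and in the 320 bins over 40 times it was 1.93 and 1.49. The mean H3K9me3 level had no such order, at 0.956 and 0.951 in the lowest range, 1.51 and 1.45 at 1 to 2 times, 0.775 and 0.936 at 5 to 10 times, and 2.197 and 1.748 over 40 times. The KO libraries of H3K9me3 had medians of 1.86 and 1.77 in these 320 bins, and the mean IgG level there was 1.22 and 1.04. Of the 320 bins, 61 (19.1%) counted as enriched in both marks, against 3.10% of the 10195 bins at 2 to 5 times. The origin of H3K9me3 fragments in the densest H3K27me3 bins was not tested.

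The classes differed in sequence and gene content, which the rule did not use. Bins with H3K27me3 alone had a median of 14.0 CpGs per kb (quartiles 11.2 and 18.3) and 22.7% soft-masked repeat. Bins with H3K9me3 alone had 7.10 CpGs per kb (5.20 and 9.90) and 65.5% repeat (49.8 and 75.9). Joint bins resembled the first in CpG, with 13.6 per kb, and lay between both in repeat, with 40.8%. Bins with neither had 7.10 CpGs per kb and 27.2% repeat. A protein-coding gene started in 33.8% of bins with H3K27me3 alone, 4.07% of those with H3K9me3 alone, 19.7% of joint bins, and 6.44% of bins with neither. The share of sampled 31-mers with another exact copy in the genome had a median of 4% where H3K27me3 stood alone, 54% where H3K9me3 stood alone, and 46% in joint bins. Reads in such copies may have been placed at 1 of several matches, so the position of the H3K9me3 and many joint bins is less certain.

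The marks also differed in extent. H3K27me3 bins fell into 10205 runs of neighbouring bins, 74.6% of them a single bin and 9 of 10 bins or more. H3K9me3 bins fell into 13515 runs, 75.5% of them a single bin and 263 of 10 or more. The 3 longest H3K27me3 runs lay at Hox clusters, which encode transcription factors of the body axis: 200 kb over Hoxc4 to Hoxc13 (chr15:102910001-103110000), 150 kb over Hoxb1 to Hoxb9 (chr11:96230001-96380000), and 140 kb over Evx2 and Hoxd1 to Hoxd13 (chr2:74640001-74780000). The 3 longest H3K9me3 runs all lay on chromosome 7. The longest spanned 1270 kb (chr7:31960001-33230000) with 12 coding genes, all of the Scgb1b and Scgb2b genes for secretoglobins, the androgen-binding proteins of mouse saliva and tears. The next spanned 700 kb over Vmn2r41 to Vmn2r45 and 670 kb over Vmn2r46 to Vmn2r52 with Vmn1r66, genes for pheromone receptors. Around bins with H3K27me3 alone, H3K27me3 fell from 10.8 and 9.71 times the mean to 4.22 and 4.45 times 10 kb before and to 1.83 and 1.98 times 100 kb before. Around bins with H3K9me3 alone, H3K9me3 was still at 3.45 and 3.24 times 100 kb before. Around joint bins, H3K27me3 was at 2.70 and 3.89 times 50 kb before, against 1.99 and 2.21 times for bins with H3K27me3 alone, and it was at 1.89 and 2.04 times and H3K9me3 at 5.11 and 5.07 times 100 kb before them.

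**Figure D3:**
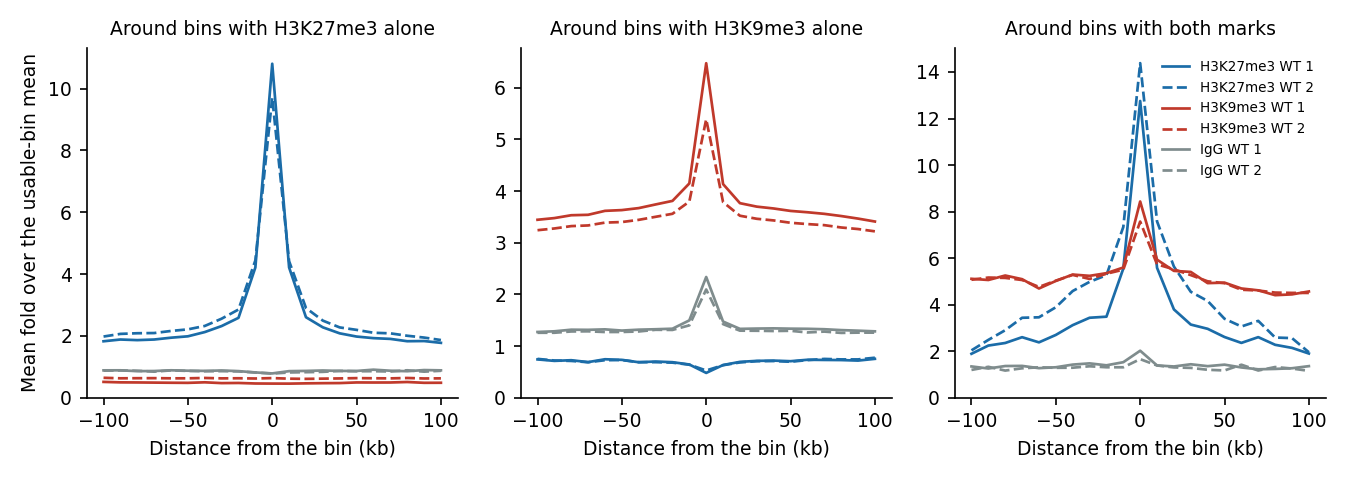
Mean level around bins with H3K27me3 alone, H3K9me3 alone, and both marks, by distance from the bin in kb; lines give single WT libraries (solid replicate 1, dashed replicate 2) as the fold over the usable-bin mean. H3K27me3 is a narrow peak around bins with H3K27me3 alone and around joint bins, and H3K9me3 stays above 3 fold over the whole span around bins with H3K9me3 alone and above 4 fold around joint bins.

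Chromosomes carried the marks unevenly. Chromosome 7 had the highest share of bins with H3K9me3 alone, 20.3%, and its mean level was 2.05 and 2.10 times the mean for H3K9me3 and 1.04 and 1.04 times for H3K27me3. Chromosome 14 followed with 13.6%, at 1.86 and 1.76 times for H3K9me3 and 0.931 and 0.894 times for H3K27me3. Chromosome 11, with 13.8 coding genes per Mb, had the lowest share of H3K9me3 alone, 4.47%, and the highest of H3K27me3 alone, 8.17%, with H3K27me3 at 1.26 and 1.36 times and H3K9me3 at 0.508 and 0.594 times. Chromosome 7 had 14.3 coding genes per Mb, close to the gene density of chromosome 11. On every autosome except chromosome 17 the levels of the marks did not overlap between libraries, so this does not set these 3 chromosomes apart. Chromosome 5 did not overlap either, with 1.14 and 1.18 times for H3K27me3 against 1.21 and 1.25 for H3K9me3. The levels on chromosome 17 were 1.16 and 1.14 against 1.07 and 1.18. Joint bins made up 1.02% of chromosome 14 and 0.069% of chromosome 11.

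**Figure D4:**
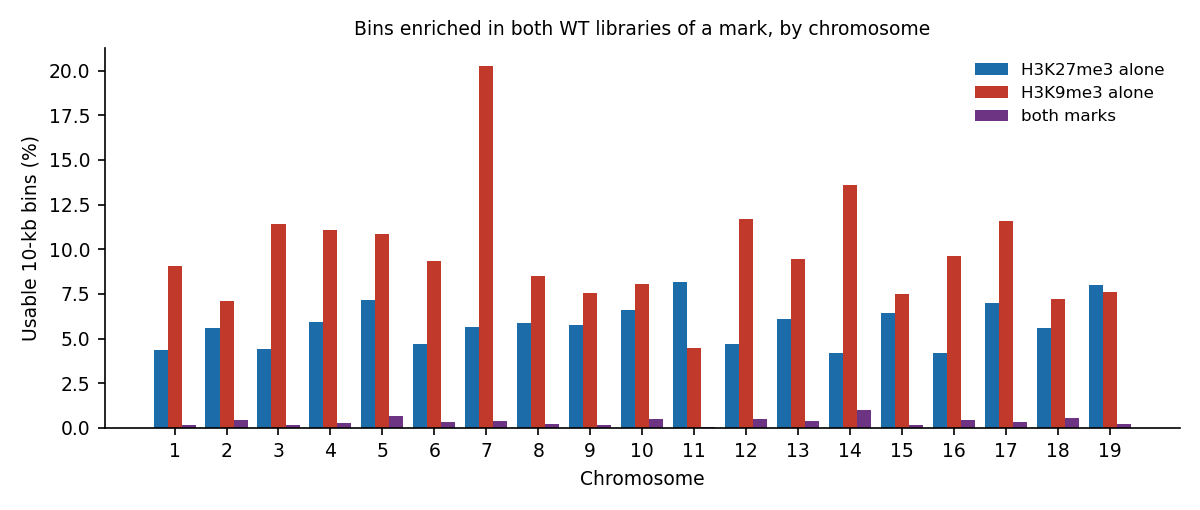
Share of usable 10-kb bins on each autosome, in percent, that were enriched in H3K27me3 alone, in H3K9me3 alone, and in both marks. H3K9me3 alone is most frequent on chromosome 7 (20.3%) and least on chromosome 11 (4.47%), and joint bins stay at or below 1.02%.

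The densest single bins of each class were as follows. Among bins with H3K27me3 alone, 3 of the top 5 lay within 40 kb on chromosome 6 (chr6:114490001-114530000), with no annotated gene in the bins. The first of the 5 had 910 and 136 H3K27me3 fragments, or 78.6 and 182 times the mean, and 28 and 15 H3K9me3 fragments, or 2.46 and 1.60 times. The copied shares of the 3 bins were 88%, 96%, and 72%, and H3K9me3 was at 3.43 and 1.60 times in another of them and at 1.67 and 1.92 times in the last, so that 2 of the 3 missed the joint class by 1 library. Another lay on chromosome 19 at Pax2, a homeobox regulator of kidney and eye, with 724 and 92 H3K27me3 fragments against 38 and 18 of H3K9me3, or 3.34 and 1.92 times the mean, below the limit in 1 library. Among bins with H3K9me3 alone, the bin by Zfp988 whose centre is printed above had 1275 and 876 H3K9me3 fragments, 112 and 93.4 times the mean, and 6 and 1 of H3K27me3. IgG had 2 fragments in this bin over both libraries, and the copied share of the bin was 72%. Joint bins were ranked by the lower of their mean folds in the 2 marks, so that others had more of a single mark. In the first (chr4:147400001-147410000), H3K27me3 had 331 and 13 fragments, 28.6 and 17.4 times the mean, and H3K9me3 480 and 512, 42.2 and 54.6 times, with 3 of IgG. The joint bin on chromosome 12 had 29.3 and 10.7 times for H3K27me3 and 85.7 and 56.2 times for H3K9me3, and that on chromosome 10 had 21.1 and 18.7 times against 41.2 and 34.8 times. Of the first 10 joint bins in this order, 6 lay on chromosome 14 (first chr14:4010001-4020000, last chr14:7240001-7250000), and 32% to 100% of the sampled 31-mers of all 10 had another copy.

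Joint bins formed 503 regions when gaps up to 100 kb were bridged, of which 391 were a single bin and 7 held 10 bins or more, 120 bins (14.2%) in all. Among these 7, the following 5 were nearly free of copied sequence, with a median copied share of 4% to 10%: 33 bins over 990 kb with Tshz2, Bcas1, Cyp24a1, Pfdn4, and Dok5 (chr2:169990001-170980000), 20 bins over 560 kb with Hspb8 and Srrm4 (chr5:116310001-116870000), 14 bins over 290 kb with Cpm (chr10:117390001-117680000), and regions of the clustered protocadherins on chromosome 18, with 16 bins at Pcdhb and 10 at Pcdhga and Pcdhgb. A smaller region at Pcdha (chr18:36920001-37100000) held 8 joint bins. The rest of the 7 lay on chromosome 14 (chr14:3940001-4510000 and chr14:5640001-6290000), with copied shares of 94% and 92% and genes known by Gm numbers. Levels are given over the joint bins of a region only, which the limit chose, and not over its whole span. In the joint bins of the region with Tshz2, H3K27me3 was at 11.1 and 11.8 times the mean and H3K9me3 at 4.56 and 6.25 times. In the joint bins of that with Srrm4 the values were 9.94 and 10.8 against 9.50 and 8.77. In the joint bins of the larger region on chromosome 14 they were 10.7 and 7.50 against 21.1 and 16.1.

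Joint bins of unique and of copied sequence differed in the balance of the marks. In the 463 joint bins with a copied share of at most 50%, H3K27me3 was at 14.2 and 16.8 times the mean and H3K9me3 at 5.12 and 5.31 times, with IgG at 1.31 and 1.12. In the other 385 bins H3K27me3 was at 11.1 and 11.4 times, H3K9me3 at 12.4 and 10.3 times, and IgG at 2.89 and 2.31. The medians in these 385 bins were 6.30 and 4.02 for H3K27me3 against 8.97 and 7.78 for H3K9me3. In the 463 bins they were 8.55 and 6.70 against 3.69 and 4.26. A coding gene started in 23.8% of the first set and 14.8% of the second. The 31-mer copies and the IgG level moved together here, and their part in the difference was not tested.

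Bins of high IgG, 6674 in number, were left out of the classes because the pooled IgG count was at least 4 times its mean, and they held 29.8% and 30.6% of the autosomal H3K9me3 fragments against 6.08% and 11.7% of those of H3K27me3 and 44.0% and 29.4% of IgG. The 6 densest, 4 at the start of chromosome 9 (chr9:3000001-3040000) and 1 each on chromosomes 2 (chr2:98660001-98670000) and 14 (chr14:19410001-19420000), alone held 18.3% and 20.6% of H3K9me3, 1.28% and 1.93% of H3K27me3, and 12% of pooled IgG. Relative to IgG these 6 bins were thus at 1.53 and 1.72 times for H3K9me3 and at 0.107 and 0.161 times for H3K27me3. H3K27me3 led at other bins of this kind. On chromosome 17 the bin with Gm26917, Gm42418, and AY036118 (chr17:39840001-39850000) had 6821 and 798 fragments of H3K27me3 against 818 and 884 of H3K9me3 and 52 of IgG. On chromosome 6 a bin of copied sequence with no annotated gene (chr6:47660001-47670000) had 3844 and 566 against 119 and 107, and 16 of IgG. On chromosome 11 the bin at Sfi1 and Drg1 (chr11:3190001-3200000) was the reverse, with 39 and 10 of H3K27me3 against 5865 and 4093 of H3K9me3 and 18 of IgG. Both marks were dense in the bin at Tmem125 (chr4:118540001-118550000), with 3061 and 322 fragments of H3K27me3, 4229 and 2011 of H3K9me3, and 24 of IgG. Over all 6674 bins, 86 were at 2 times IgG in both H3K27me3 libraries, 310 in both H3K9me3 libraries, and 6 in all 4.

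Bins and gene bodies were also tested directly between the marks with limma-voom and Benjamini-Hochberg adjustment, on features with at least 10 fragments over the 4 libraries. Of 129276 bins tested, 31479 (24.4%) were higher in H3K27me3 and 39282 (30.4%) in H3K9me3 at an adjusted p under 0.05. With the replicate block the counts were 31525 and 29496, so that H3K27me3 had more calls. The fit also called bins outside the enriched classes, 17146 higher in H3K27me3 and 14129 in H3K9me3 among 86709 tested bins with neither mark. Among the 848 joint bins, 395 were higher in H3K27me3, 128 in H3K9me3, and the rest did not pass. Of the called bins, 74.9% and 90.2% had the same direction in both replicate pairs. In 7793 bins called for H3K27me3 and 26998 called for H3K9me3 the shallow H3K27me3 library had no fragment, and voom's added count of 0.5 gives such a bin a log2 CPM of 1.35 there, against -2.91 to -2.52 in the other libraries. limma-trend, in which 0.5 CPM was added to every library alike, called 15813 and 21861 bins, of which 15793 and 21803 were also called by voom. Without H3K27me3 replicate 1 the calls were 14203 and 117, and without replicate 2 they were 21631 and 19101. In these fits the lone H3K27me3 library is assumed to vary like the H3K9me3 libraries. With fragments on X and Y in the library size, 59.97% of the calls were for H3K27me3 in place of 44.5%.

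Gene bodies leaned to H3K27me3. Of 23628 genes tested, 9488 (40.2%) were higher in H3K27me3 and 2510 (10.6%) in H3K9me3, with a median log2 difference, H3K27me3 minus H3K9me3, of 0.99. limma-trend also called 7022 of the first and 1954 of the second. Of the called genes, 88.5% and 96.3% had the same direction in both replicate pairs. In 1006 genes called for H3K27me3 and 1083 called for H3K9me3 the shallow H3K27me3 library had no fragment. With 0 fragments there, the same direction for H3K9me3 was nearly certain. The split depends on the scale: the median was 1.67 with X and Y in the library size, 0.59 with bins of high IgG left out of it, and -0.19 when libraries were centred on their medians, which gave 7019 genes for H3K27me3 (56.2% of the calls in place of 79.1%) and 5464 for H3K9me3. Without H3K27me3 replicate 1, 5337 and 170 genes were called, and without H3K9me3 replicate 1, 8532 and 5467. By type of gene, 38.9% of 15626 tested coding genes (20807 annotated) were higher in H3K27me3 and 9.02% in H3K9me3. Processed pseudogenes, copies made from mRNA, had 59.1% and 7.91% of 1353 tested (8924 annotated). Unprocessed pseudogenes, left by duplication of genes, were the reverse, with 5.62% and 49.4% of 729 tested (1789 annotated). These are shares of tested genes only. A gene that passed the fragment filter through the mark in which it is high was likely to differ. The part of this filter in the shares was not tested. Overlapping genes share fragments, and reads in near-identical copies may be split between them.

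The 10 coding genes with the largest H3K27me3 excess by the fixed rule were Htr1a, 3110040M04Rik, Nhlh2, Pcdh20, Gm9767, Lmod3, Gpr27, Cxcl2, Shisa4, and Prr15, with log2 differences of 7.20 to 7.89. Htr1a (chr13:105443639-105448122), a serotonin receptor of neurons whose promoter is printed above, had 167 and 13 H3K27me3 fragments and 1 and 0 of H3K9me3. Its H3K27me3 level was 13.0 and 14.8 CPM per kb (FPKM), and the log2 difference 7.89 ± 1.06 (SE; limma-voom adjusted p = 1.68e-11). The pooled ratio of 406 has an exact 95% counting interval of 71.9 to 16119, since it rests on 1 fragment of H3K9me3. Nhlh2 (chr3:102010076-102015492), a basic helix-loop-helix factor of neurons, was at 20.4 and 16.0 FPKM against 0.294 and 0, and Prr15 (chr6:54325835-54330201) at 19.6 and 15.2 against 0.122 and 0.073. Cxcl2, a chemokine for neutrophils, was at 20.6 and 17.3 FPKM against 0 and 0.154. Lmod3, an actin nucleator of muscle, was at 4.44 and 1.43 FPKM against 0 and 0.0448. Gm9767 and Gpr27 had no H3K9me3 fragment in either library, and their H3K27me3 was at least 63.1 and 59.4 times higher when 3 fragments over both H3K9me3 libraries are taken as the floor. In all 10 genes both H3K27me3 libraries were above both H3K9me3 libraries, which the rule that chose them in these same libraries made nearly certain.

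Of the 10 coding genes with the largest H3K9me3 excess, the 8 described here were Vmn2r37, Drg1, Zfp989, Vmn2r89, Zfp980, Gm21411, Vmn2r50, and Zfp981, with log2 differences of -6.32 to -5.71. Drg1 (chr11:3187360-3266415), which encodes a GTP-binding protein and overlaps Sfi1 and bins of high IgG, had 59 and 12 H3K27me3 fragments and 7232 and 5348 of H3K9me3. Its levels were 0.261 and 0.774 FPKM against 24.3 and 21.6, a log2 difference of -6.23 ± 0.40 (SE; limma-voom adjusted p = 3.58e-40), and its IgG level was 1.13 FPKM. Zfp989, Zfp980, and Zfp981, zinc finger genes of one stretch of chromosome 4, were at 10.9 to 17.4 FPKM of H3K9me3 for Zfp980 and Zfp981 and at 8.99 and 9.37 for Zfp989, with H3K27me3 at 0 to 0.302 in all 3. The vomeronasal receptors Vmn2r37 and Vmn2r89 had no H3K27me3 fragment, and their H3K9me3 was at least 54.3 and 45.7 times higher by the same floor. In these 8 genes both H3K9me3 libraries were above both H3K27me3 libraries, which the same rule of choice made nearly certain.

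The gene families were compared in the same fit. For each family the summed fragments per kb of gene body are given as the fold over all coding genes in each library, beside the members called by the fit. These lists were chosen with earlier results known, so their counts are descriptions to be read beside 40.2% and 10.6% of all genes. Counts of bins are to be read beside all 232147 usable bins, of which 13218 had H3K27me3 alone, 23046 H3K9me3 alone, and 848 both. Only members with 10 fragments were tested, and a member that passed through the mark in which it is high was likely to differ. The level of all coding genes includes genes in the densest bins of high IgG. Gm10717, for example, had 4651 and 403 H3K27me3 fragments against 101994 and 95182 of H3K9me3. Such genes raise that level more for H3K9me3 than for H3K27me3, so the folds of the marks are not on the same scale.

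Developmental transcription factors carried H3K27me3. Of 39 annotated Hox genes, 38 were tested, 37 were higher in H3K27me3, and 0 in H3K9me3, with a median log2 difference of 5.08. Their level was 31.2 and 59.0 times that of all coding genes for H3K27me3 and 1.82 and 1.33 times for H3K9me3, the highest H3K27me3 of all 29 families. Hoxb13 had the largest difference, with 22.6 and 35.8 FPKM against 0.764 and 0.204 (log2 difference 5.70 ± 0.90). Hoxd8 had the smallest, with 0.842 and 4.61 FPKM against 0.0801 and 0.672 (2.18 ± 1.13; adjusted p = 0.101). Of 44 usable bins at Hox genes, 34 had H3K27me3 alone and 10 both marks. The other homeobox genes, such as those of the Pax, Lhx, and Dlx groups, had 109 of 112 tested members higher in H3K27me3, at 15.2 and 18.1 times against 0.896 and 0.662. The T-box genes, lineage factors of mesoderm, heart, and limb, had 13 of 14 (15 annotated), at 11.0 and 14.3 against 0.547 and 0.513. All 5 Gata genes were higher in H3K27me3, with 7.47 and 11.2 FPKM against 0.340 and 0.298 at Gata4, a factor of heart and gonad. The forkhead genes had 34 of 38 (41 annotated), at a lower 2.09 and 2.32 times against 0.243 and 0.283. The Sox genes had 16 of 17 (18 annotated), at 1.49 and 1.54 times against 0.350 and 0.322. Of the usable bins at forkhead and Sox genes, 79.1% and 85.4% had neither mark, against 84.0% of all usable bins. Sox30, a regulator of spermatid genes, was the Sox exception, with 0.0834 and 0.406 FPKM against 0.600 and 0.381 (log2 difference -2.001 ± 0.720; adjusted p = 0.0130), and its libraries overlapped between the marks. This call was lost with the replicate block and with X and Y in the library size. The Wnt ligands, secreted signals of development, had 19 of 19, at 6.67 and 7.47 times against 0.333 and 0.465. The medians of the Hox, other homeobox, T-box, Gata, forkhead, and Wnt families stayed above 3 under the scalings with X and Y, without bins of high IgG, and centred, while 1 forkhead gene was higher in H3K9me3 under each of the last 2.

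Several other families had more members higher in H3K27me3 than in H3K9me3. The keratins, filaments of epithelia, had 28 of 34 tested members higher in it (49 annotated), at 4.36 and 4.61 times against 0.229 and 0.414. Clustered histone genes had 34 of 35 (67 annotated), at 9.61 and 8.76 times against 0.881 and 1.11. MHC genes, which present antigens, had 17 of 25 (34 annotated) and 1 in H3K9me3, H2-T24, with IgG at 2.11 and 0.821 times. Kallikreins, serine proteases, had 6 of 11 (27 annotated), the type I interferon genes 3 of 3 (18 annotated; Ifnz and Ifnk are among the 3), and the imprinted genes, expressed from one parental allele, 17 of 27 (31 annotated) with 2 in H3K9me3. With X and Y in the library size, the calls for H3K9me3 were lost in both the MHC and the imprinted genes. Phlda2, an imprinted gene that restrains placental growth, was at 28.1 and 15.9 FPKM against 0.331 and 0.199, while Ube3a, which encodes a ubiquitin ligase, was at 0.0338 and 0.123 against 0.202 and 0.289.

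The vomeronasal receptors, the Skint genes, and the Speer genes had more members higher in H3K9me3. Of 327 vomeronasal receptors 284 were tested, and 134 were higher in H3K9me3 and 1 in H3K27me3, Vmn1r43, with a median log2 difference of -2.24. Their level was 3.17 and 2.87 times that of all coding genes for H3K9me3 and 0.271 and 0.309 times for H3K27me3, with IgG at 0.796 and 1.10. Of 798 usable bins at these receptors, 377 had H3K9me3 alone, 7 H3K27me3 alone, and 3 both. The Skint genes, immunoglobulin-like proteins of the skin, had 9 of 11 higher in H3K9me3, at 4.15 and 3.67 times against 0.367 and 0.364 and with IgG at 0.873 and 1.02. The Speer genes, multi-copy genes transcribed in spermatids, had the highest H3K9me3, 15.2 and 16.5 times against 1.54 and 2.98, but IgG was also at 6.02 and 6.24 times, and 4 of 9 tested members (10 annotated) were higher in H3K9me3. The medians of these 3 families stayed below -1.3 under the scalings with X and Y, without bins of high IgG, and centred.

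Zinc finger genes had calls in both directions. Of 456 members, many of them KRAB repressors of transposons, 390 were tested, 86 were higher in H3K27me3, and 91 in H3K9me3, 22.1% and 23.3% of those tested. The family as a whole was at 0.943 and 0.979 times for H3K27me3 and 1.90 and 1.80 times for H3K9me3. Zfp648 led on one side, with 9.62 and 2.26 FPKM of H3K27me3 against 0.177 and 0 of H3K9me3 (log2 difference 6.58 ± 1.11), and Zfp989 on the other, with 0.112 and 0 against 8.99 and 9.37 (-6.19 ± 0.87). The median of -0.31 turned to 0.36 with X and Y in the library size. The counts were 98 and 61 with X and Y and 62 and 155 when centred. In windows around the start site the balance was another, with 184 members tested, 103 higher in H3K27me3, 25 in H3K9me3, and a median of 2.97. Olfactory receptors, 1128 in number, were at 0.423 and 0.410 times the level of all coding genes for H3K27me3. They were at 0.730 and 0.743 times for H3K9me3, with IgG at 0.722 and 0.763. Genes of the densest bins of high IgG raise the H3K9me3 level of all coding genes, so 0.730 and 0.743 do not show a low level. Of the 1128 receptors, 393 had enough fragments, 46 were higher in H3K27me3 and 52 in H3K9me3, and the median of -0.61 turned to 0.06 with X and Y. When libraries were centred, 32 were higher in H3K27me3 and 151 in H3K9me3. Among the 97 members with at least 40 fragments, 24 were higher in H3K27me3 and 52 in H3K9me3, with a median of -2.11. Of 1625 usable bins at these genes, 255 (15.7%) had H3K9me3 alone and 35 (2.15%) H3K27me3 alone. Over all 232147 usable bins these counts were 23046 and 13218.

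The clustered protocadherins, adhesion molecules of neurons, had the highest share of joint bins among the 29 families, 50% against 22.7% at Hox genes and 5.66% or less in the others. Their level was 8.18 and 10.8 times for H3K27me3 and 2.48 and 3.45 times for H3K9me3, with IgG at 0.539 and 0.956, and 32 of the 64 usable bins at these genes were joint bins, 8 had H3K27me3 alone, and 12 H3K9me3 alone. All 57 members were tested, 39 were higher in H3K27me3 and 0 in H3K9me3, and the median was 1.55. Many gene bodies of the Pcdha and Pcdhg groups overlap, so the same fragments count for several members in these calls and in the summed level. When libraries were centred, 20 were higher in H3K27me3 and the median was 0.43. Pcdhb9 had the smallest difference, with 1.60 and 1.67 FPKM against 2.44 and 3.23 (log2 difference -0.64 ± 0.80; adjusted p = 0.553). Pcdhgc3 had the largest, with 3.13 and 3.73 against 0.112 and 0.673 (3.602 ± 0.505). The KO libraries gave 9.11 and 8.61 times for H3K27me3 and 2.83 and 3.65 times for H3K9me3.

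**Figure D5:**
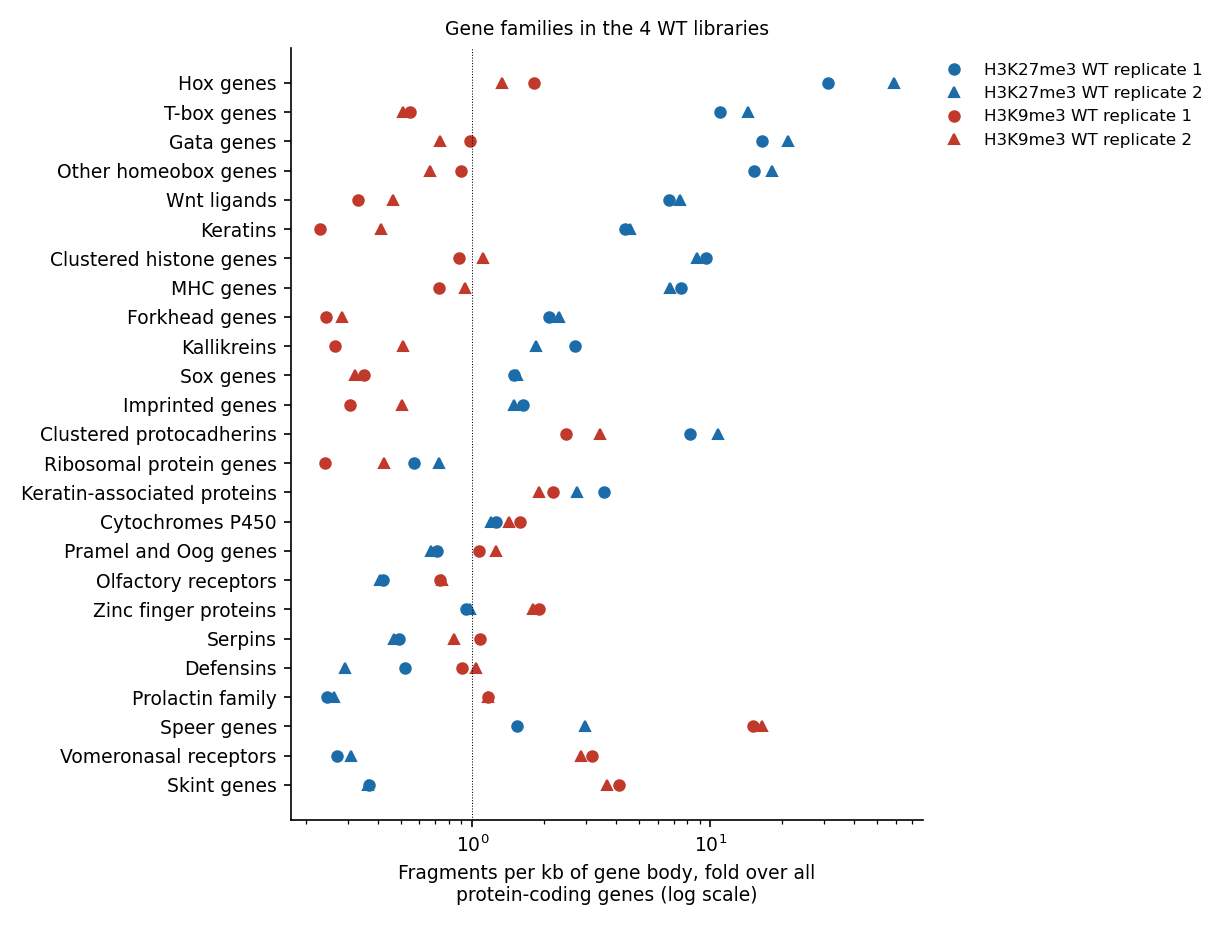
Fragments per kb of gene body summed over each family, as the fold over all protein-coding genes on a log scale, for the 2 H3K27me3 (blue) and 2 H3K9me3 (red) WT libraries; families with at least 5 tested members and no library at 0 are ordered by the ratio of the means. Hox genes are at 31.2 and 59.0 times for H3K27me3, vomeronasal receptors at 3.17 and 2.87 times for H3K9me3, and the clustered protocadherins lie above 2 in all 4 libraries.

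The remaining families had few calls or calls in both directions. Cytochromes P450 had 29 higher in H3K27me3 and 20 in H3K9me3 of 84 tested (100 annotated), from Cyp26c1, which degrades retinoic acid, at 13.6 and 9.78 FPKM against 0.170 and 0.204, to Cyp3a11, a drug-metabolising enzyme of liver, at 0.0547 and 0 against 1.36 and 1.59. Serpins, protease inhibitors, had 7 and 6 of 41 (60 annotated), and defensins, antimicrobial peptides, 2 and 1 of 14 (64 annotated). With at least 40 fragments the serpins had 3 and 9 of 15, with a median of -1.96. Keratin-associated proteins of hair had 4 and 0 of 15 (54 annotated), with IgG at 3.86 and 4.41 times. Their calls turned to 3 and 6 when libraries were centred and to 5 and 14 of 25 in windows around the start site, and 15 of 49 usable bins at these genes had H3K9me3 alone against 3 with H3K27me3 alone. Major urinary proteins had 0 and 1 of 19 (22 annotated), the prolactin family 0 and 3 of 12 (25 annotated), and the Pramel and Oog genes 1 and 1 of 10 (15 annotated). Ribosomal protein genes, active in every cell, had 8 and 1 of 15 tested (75 annotated) and were low in both marks, at 0.568 and 0.726 times against 0.241 and 0.426. The protamines and transition proteins, which replace histones in spermatids, had 1 of 5 members tested, Tnp1, called for H3K27me3 from 6.27 and 0 FPKM against 0 and 0, so that the call rests on 1 library. None of the 35 bitter taste receptors had enough fragments. Centring gave 0 and 10 for major urinary proteins, 0 and 6 for the Pramel and Oog genes, 2 and 1 for ribosomal protein genes, 1 and 5 for defensins, 2 and 17 for serpins, and 23 and 33 for cytochromes P450, and with X and Y the prolactin family had 0 and 0. The P450 and serpin medians turned below 0 when libraries were centred or bins of high IgG left out, and those of defensins and prolactin genes above 0 with X and Y.

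At single genes, both marks were at least 2 times their gene-body mean in all 4 libraries in 142 of 8587 coding genes with 50 fragments (1.65%). The 10 strongest by the fixed rule, Gm10800, Gm10718, Gm21738, Gm10722, Gm10719, Gm17535, Gm10801, Gm11168, Gm10721, and Gm10717, all lie in the 6 densest bins of high IgG. These genes also count in the gene-body means. Gm10800 was at 2316 and 4185 FPKM for H3K27me3 and 20194 and 23449.5 for H3K9me3, and at 17195 for IgG, the mean of both IgG libraries. Outside bins of high IgG 96 such genes remained, and 74 had a median copied share of at most 50% in the bins they touch. Of the 96 genes, 38 were clustered protocadherins, many of whose gene bodies overlap and share fragments. The genes named next were chosen from these 96 after their values were seen. Msx1, a homeobox factor of limb and face (chr5:37820485-37824583), was at 23.9 and 28.6 FPKM for H3K27me3 and 4.28 and 3.66 for H3K9me3, 51.33, 60.003, 13.70, and 10.02 times the gene-body means, with IgG at 4.39 and 0 times. Srrm4, a splicing factor of neurons (chr5:116439275-116591817), was at 2.49 and 2.51 FPKM against 2.586 and 2.301, a log2 difference of 0.03 ± 0.23 (SE; limma-voom adjusted p = 0.942), and its IgG was at 0.236 and 0.734 times. The neighbouring Hspb8, a small heat shock protein, was at 4.13 and 3.90 FPKM against 2.27 and 2.35. Duxf3, a copy of the Dux homeobox array that acts in the early embryo, was at 93.6 and 85.0 FPKM against 3.35 and 3.19, with a copied share of 67% in the bins it touches, IgG at 6.68 and 6.92 times, and H3K4me3 at 24.8 and 41.3 times. The IgG libraries together had a mean of 1.17 fragments per 10-kb bin. In genes as short as Msx1 and Duxf3 the IgG folds thus rest on very few fragments and do not show a raised background. Gm3248 of the copied region on chromosome 14 was at 7.85 and 6.17 times for H3K27me3 and 14.4 and 10.8 times for H3K9me3, with H3K4me3 at 9.41 and 5.45 times. In the KO libraries Msx1 was at 54.7 and 61.9 times against 17.3 and 10.6, and Srrm4 at 5.227 and 4.304 against 10.6 and 7.05.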

How the data were processed

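AutoCUT&RUN fragments of WT spermatids were analysed for H3K27me3 and H3K9me3 (2 libraries each), with IgG, H3K4me3, and KO libraries for comparison. Per the labels and methods, the authors aligned paired ends to mm10 with Bowtie2 (2.3.4.3 in the submitters' processing notes, while the methods name another version). They deposited 1 list of fragment coordinates and lengths per library, without scaling. Removal of PCR duplicates is described in the methods, yet 46.1% to 67.0% of the autosomal fragments of the 4 libraries repeated the coordinates of another, and each position was counted once, by the fragment midpoint, on the autosomes of GRCm38 and in GENCODE vM21 gene bodies. FPKM values are fragments per kb of gene body and per 1000000 distinct autosomal fragments. Usable bins had at least 1 fragment over the 4 libraries and a pooled IgG count below 4 times its mean. A filter on mapping quality is not given in the sources used here, so a fragment in copied sequence may stand at 1 of several matches. X and Y and the comparison of WT with KO are not analysed here, and 1 locus that the rule names is not reported here.

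limma-voom (limma 3.58.1, R 4.3.3) compared the marks with the library size as scaling. It was also run on simulated counts with known changes, where it recovered most of the changed genes but few of the changed bins. In those counts only a small part of the features changed, and their spread was fixed. The outcome therefore does not give the share of differences found in the real comparison. Other values used Python 3.11.15, NumPy 2.4.6, SciPy 1.17.1, and pandas 2.3.3. Members, families, and lists were chosen with earlier results of these data known. The named genes have at least 50 fragments, an adjusted p under 0.05, and the same direction in both replicate pairs, and are the 10 with the largest log2 difference each way; 10 with both marks have at least 2 fold in all 4 libraries. Bins named are the 5 densest of each mark alone and the 10 with both marks in which the lower of the mean folds was highest. Family members named are those with the largest or smallest difference. The named bins of high IgG, runs, and regions, and the genes with both marks outside bins of high IgG, were chosen after their values were seen.

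Replicate numbers were taken to pair libraries of the same animal, from the sibling pairs in the methods and the strings of digits shared by the titles, though no label names the animal. Deviations of same-numbered libraries from the mark means had a correlation of 0.0166 across 123821 bins. The pairing was left out of the main fit and used in an alternative. Other alternatives changed duplicates, fragment length, depth, library size, filters, bins, windows, and limits. The library size without bins of high IgG and the removal of copied bins were chosen after seeing the data.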

Additional observations from a re-analysis of the deposited data

How the results depend on the processing

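The 848 joint bins became 427 with libraries thinned to the smallest, 259 in 50-kb bins, 375 at 3 fold, and 299 with IgG exceeded by 2 times, and the lowest and highest counts without 1 replicate were 1022 and 2304, the latter without H3K27me3 replicate 1. Bins with H3K27me3 alone, 13218, became 4454 in 50-kb bins and 13002 to 21802 without 1 replicate, the latter without H3K27me3 replicate 1. Bins with H3K9me3 alone, 23046, became 14786 when thinned, 3536 in 50-kb bins, 15161 at 3 fold, 7467 over IgG, and 21590 to 27368 without 1 replicate. The correlation of 0.16 became -0.30 when thinned, 0.073 in 50-kb bins, 0.025 on a linear scale, and ran from 0.080 (without H3K27me3 replicate 1) to 0.213 (without replicate 2).

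Bins higher in H3K27me3, 31479, became 7223 when thinned, 11992 in 50-kb bins, 16743 with at least 40 fragments, and 15813 by limma-trend, with 14203 to 29173 without 1 replicate. Bins higher in H3K9me3, 39282, became 4511 when thinned, 12044 in 50-kb bins, and 21861 by limma-trend, with 117 to 50667 without 1 replicate. Genes higher in H3K27me3, 9488, became 2453 when thinned, and 5337 to 9596 without 1 replicate. Genes higher in H3K9me3, 2510, became 543 when thinned, 1422 with X and Y in the library size, and 5464 when centred, with 170 to 5467 without 1 replicate. With no filter on low counts limma-voom called 0 and 1 genes, with 1 and 7 at an unadjusted p under 0.05. In that fit the largest voom weight was 1.33e+09 and the prior variance 466, against 672 and 1.40 with the filter, so it says nothing about the genes.

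With the replicate block, which pairs the marks by replicate number, 31525 and 29496 bins and 9992 and 2420 genes were called, and all 30 named genes stayed past the threshold. Of 445 refits of the named genes under 15 alternatives, 410 kept direction and call, 35 lost the call, 30 of them with no filter, and 0 reversed. The named genes were chosen for extreme values in these same libraries, so the tally does not give the stability of other calls. Without copied bins, an alternative chosen after seeing the data, 906 bins had both marks, since the mean of the usable bins also changed. With the library size outside bins of high IgG, also chosen after seeing the data, 26758 and 48714 bins and 8580 and 3185 genes were called. The depth of H3K27me3 replicate 2 limits what can be seen in single bins.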
